A study of Mus musculus with 45 samples.

Results

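Fatty acid uptake and activation were followed through 10 genes in small-intestinal tuft cells of mice, isolated by cell sorting. The genes are Cd36, Slc27a1, Slc27a2, Slc27a4, Fabp1, Fabp2, Acsl1, Acsl3, Acsl4 and Acsl5. They were chosen by name for their part in the handling of fatty acids, with earlier results of these data known. They are 10 of the 47729 genes in the tables. All 10 were among the 14020 genes with enough reads to be tested. Male C57BL/6J mice arrived at 5 weeks of age, ate chow for 1 week, and then received a reference diet (RFD) low in fat, with 10% of energy from fat, or a high-fat diet (HFD) with 60% of energy from fat. All mice were housed at 30 °C with 4 mice in a cage. Feeding lasted 9 weeks in the short-term set (STF) and was taken as 22 weeks in the long-term set (LTF), although the labels give 9 weeks for all 45 libraries, so that feeding time, age and set of libraries cannot be told apart. STF held 11 RFD and 11 HFD libraries, and LTF held 11 RFD and 12 HFD libraries, each from 1 mouse and named here by set, diet and mouse number. Cells were sorted by flow cytometry on EpCAM, CD45 and Siglec-F, and the methods describe the CD45 gate both as positive and as an exclusion.

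Dietary fat reaches the epithelium of the small intestine as long-chain fatty acids. CD36 and the fatty acid transport proteins of the Slc27a family help them across the plasma membrane, the small binding proteins FABP1 and FABP2 carry them through the cytosol, and the long-chain acyl-CoA synthetases of the Acsl family join them to coenzyme A, after which they can be oxidised or built into triglycerides and phospholipids. Absorptive enterocytes are best known for this route. Tuft cells are rare chemosensory cells of the same epithelium, marked by Dclk1, Trpm5 and the transcription factor Pou2f3.

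Several of these genes are textbook targets of the nuclear receptors PPARA and HNF4A, which bind repeats of AGGTCA with a spacer of 1 base. Promoters were therefore searched on both strands for AGGTCA, then any base (N), then AGGTCA again, in the 250 bases before each RefSeq transcript start (GRCm38.p6), scoring how many of the 12 defined bases matched. Fabp1 held the best match of the 10 genes, with 11 of 12 bases beginning at position -67 from the start, a score reached by 0.48% of the 32851 promoter windows. Cd36 followed with 10 of 12 at position -63, a score reached by 3.24% of windows. Fabp2, Acsl5, Acsl4 and Slc27a2 had 9 of 12, a score reached by 21.3% of windows, and the remaining genes had 7 or 8 of 12. All 250 bases of the Slc27a2 window lie in exons of Slc27a2 itself in the GENCODE annotation, downstream of the gene start given there. A match is a run of letters and not a measured binding site. The promoters of Fabp1, Cd36 and Fabp2 are shown because Fabp1 and Cd36 carry the 2 best matches and because Fabp1 and Fabp2 encode the carriers of the same step. They lie at chr6:71199629-71199826 (plus strand, cut before the exon), chr5:17835897-17836146 (minus strand) and chr3:122894822-122895071 (plus strand), and capitals mark the best match.
Fabp1: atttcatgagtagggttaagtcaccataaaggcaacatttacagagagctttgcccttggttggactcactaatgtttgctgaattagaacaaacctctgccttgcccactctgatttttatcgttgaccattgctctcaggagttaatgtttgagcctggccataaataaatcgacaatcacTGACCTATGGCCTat
Cd36: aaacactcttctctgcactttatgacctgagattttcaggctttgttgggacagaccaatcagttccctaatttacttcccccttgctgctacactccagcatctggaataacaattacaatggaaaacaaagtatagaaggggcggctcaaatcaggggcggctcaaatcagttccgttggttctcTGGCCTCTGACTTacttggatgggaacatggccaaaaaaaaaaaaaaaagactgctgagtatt
Fabp2: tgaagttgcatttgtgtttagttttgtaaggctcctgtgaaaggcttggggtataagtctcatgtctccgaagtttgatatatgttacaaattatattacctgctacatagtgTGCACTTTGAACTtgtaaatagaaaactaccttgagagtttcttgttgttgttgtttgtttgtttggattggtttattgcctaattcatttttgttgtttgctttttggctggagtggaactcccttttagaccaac

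Libraries held between 189340 and 4690213 reads assigned to genes, with a median of 1633638. Within each set, 3 libraries stood apart. In STF they were RFD 40 with the fewest reads, HFD 63 with the fewest genes (10916) and HFD 80 with the lowest tuft marker level. In LTF they were HFD 65 with the fewest reads (661598), RFD 3 with the fewest genes (8609) and HFD 6 with the lowest tuft marker level. The tuft-defining genes Dclk1, Trpm5 and Pou2f3 had reads in every library except for Pou2f3 in STF HFD 80. The enterocyte-defining genes Alpi, Sis and Apoa1 also had reads in all 45 libraries. Summed over 15 tuft markers, the median was 18528 CPM (normalized counts scaled to a common library size) on RFD and 7767 CPM on HFD in STF, and 20277 and 15692 CPM in LTF. Mean log2 sums differed by -1.45 in STF and -0.46 in LTF, with adjusted p = 0.197 and 0.493 (permutation test over libraries, two-sided, 14 tests). The 15 enterocyte markers summed to medians of 6543 and 5240 CPM in STF and to 12118 and 11925 CPM in LTF (adjusted p = 0.589 and 0.564, same permutation test). Single enterocyte markers were called in both directions, Rbp2 higher (1.32) and Apoc3 and Slc15a1 lower (-1.56 and -1.45) in STF, Rbp2 and Mttp higher (1.58 and 1.04) and Slc5a1 lower (-1.36) in LTF, and 3 higher and 4 lower over both sets, so that the sum joins genes that moved apart. In bulk libraries, fewer cells of a type and less RNA per cell cannot be told apart.

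The clearest diet differences were in Cd36 and Slc27a2, both of which act at the entry of fatty acids. In LTF both rose on HFD, and they were the only 2 of the 10 genes called at an adjusted p under 0.1 in that set, against 0.728% of all 14020 genes called with 0.435% called higher and 0.292% lower (quasi-likelihood test of edgeR, Benjamini-Hochberg adjusted). In STF none of the 10 genes was called by this test, against 3.07% of all genes (1.83% higher and 1.24% lower), and 5 of the 10 had an unadjusted p under 0.05, as did 18.2% of all genes. Those 5 were Cd36, Fabp2, Slc27a2 and Acsl1, which were higher on HFD, and Slc27a1, which was lower. The median log2 fold change of the 10 genes was 0.63 in STF and 0.49 in LTF, and that of all genes tested was -0.05 and -0.03. Since the 10 genes were chosen with earlier results of these data known, these comparisons with all genes are descriptions. With both sets in 1 fit and set as a term (22 RFD and 23 HFD libraries), Cd36, Slc27a2, Fabp2 and Acsl5 were called higher and none was called lower, against 12% of all genes called, with 6.11% higher and 5.84% lower. DESeq2 in place of edgeR called 3 of the 10 in STF, namely Cd36 and Acsl1 higher and Slc27a1 lower. It called 1534 of all 14020 genes there, against 431 with edgeR. The STF calls also moved with single libraries. Without HFD 64, 6 of the 10 genes were called, namely Cd36 (1.74), Fabp2 (1.40), Acsl1 (1.12), Slc27a2 (0.79), Acsl5 (0.69) and Slc27a1 (-1.16), with edgeR adjusted p from 0.0607 to 0.0989. That fit called 2004 of all 14020 genes, so that calls rose over all genes and not only among the 10. Without HFD 63 Cd36 was called (1.77, edgeR adjusted p = 0.0893), without RFD 20 Slc27a1 and Acsl1 (-1.07 and 1.28, edgeR adjusted p = 0.0943 and 0.0447), and without RFD 10 Fabp2 (1.75, edgeR adjusted p = 0.0648).

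**Figure D1:**
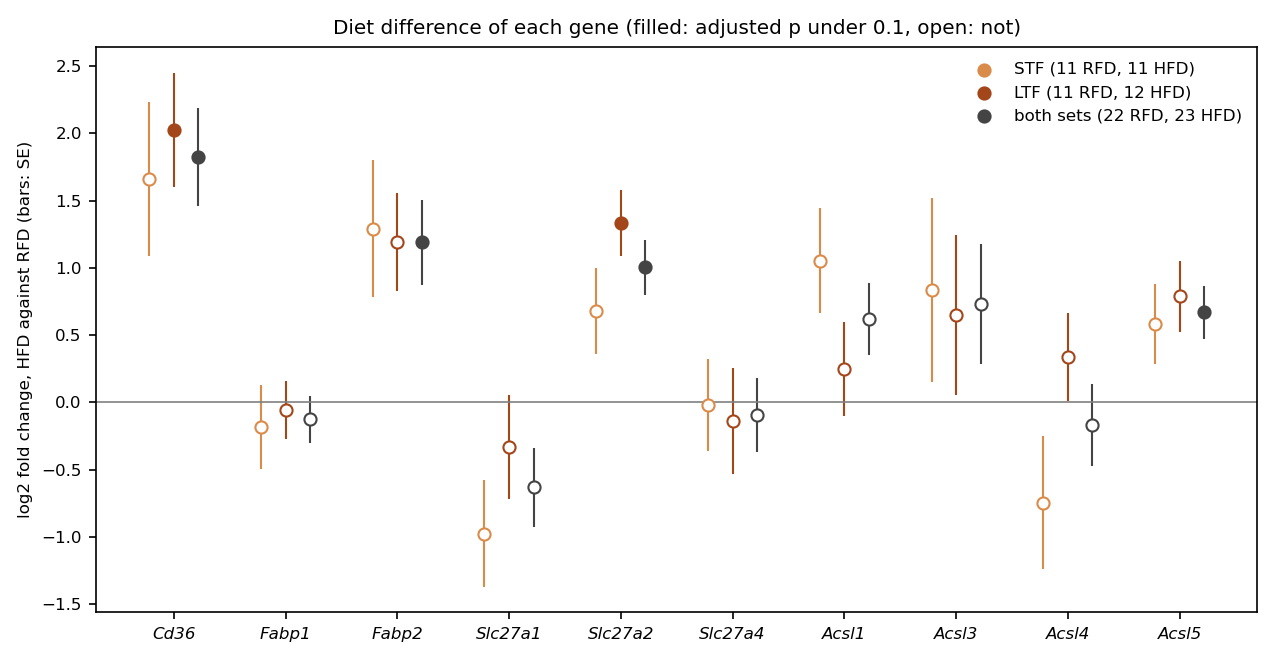
Log2 fold change of each of the 10 genes, HFD against RFD, in STF, in LTF and in both sets together, with bars of 1 SE; filled points had an adjusted p under 0.1 in quasi-likelihood test of edgeR. Cd36 reached 1.66, 2.03 and 1.82 and Slc27a2 0.68, 1.34 and 1.00, whereas Fabp1 (-0.18, -0.06 and -0.12) and Slc27a4 (-0.02, -0.14 and -0.09) lay near 0.

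Cd36, which encodes a scavenger receptor that binds long-chain fatty acids at the cell surface (chromosome 5, 17781690 to 17888801, minus strand, GRCm38), was higher on HFD in both sets. In STF its lowest, median and highest levels were 0, 7.12 and 31.1 CPM on RFD and 8.42, 19.2 and 157 CPM on HFD. In LTF they were 0, 12.7 and 33.6 CPM on RFD and 12.4, 45.5 and 120 CPM on HFD. The diets overlapped, yet 11 of 11 HFD mice in STF and 11 of 12 in LTF were above the RFD median, and 4 and 8 of them were above every RFD mouse. The LTF difference was 2.03 on the log2 scale (SE 0.42, adjusted p = 0.0237, quasi-likelihood test of edgeR, Benjamini-Hochberg adjusted). In STF it was 1.66 (SE 0.57), and the adjusted p of 0.133 from the same edgeR test did not pass the threshold. Over both sets Cd36 rose by a log2 fold change of 1.82 (SE 0.36, edgeR adjusted p = 0.00141). The highest HFD values came from STF HFD 50 and LTF HFD 6, and the RFD mouse at 0 in LTF was the library with the fewest genes, RFD 3. STF HFD 50 and the RFD mouse at 0 in STF, RFD 40, were the 2 libraries under 500000 reads. The STF difference was 1.148 without HFD 50 and 1.08 without both (edgeR adjusted p = 0.279 and 0.297).

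The Cd36 difference was recomputed beside the marker levels. For covariates and correlations, the marker level of a list was the mean log2 CPM of its 15 markers and not their summed CPM. In LTF it was 1.84 with the enterocyte marker level as a covariate and 1.91 with the tuft marker level (edgeR adjusted p = 0.0370 and 0.0300), and 1.79 without the 3 libraries that stood apart (edgeR adjusted p = 0.0097). In STF the enterocyte covariate gave 2.10 with an edgeR adjusted p of 0.0331, and the tuft covariate gave 1.06 with an edgeR adjusted p of 0.731. The Cd36 call in STF therefore differed with the marker list that was held constant. The labels' mouse numbers were grouped here into 3 series, each with both diets, which the labels themselves do not name. STF RFD 84 and LTF HFD 65 were put in no series and were left out of series values and of fits with series as a batch term. Mean log2 CPM of Cd36 was higher on HFD in every series of both sets, by 1.84, 2.47 and 0.94 in STF and by 3.01, 0.82 and 2.08 in LTF.

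**Figure D2:**
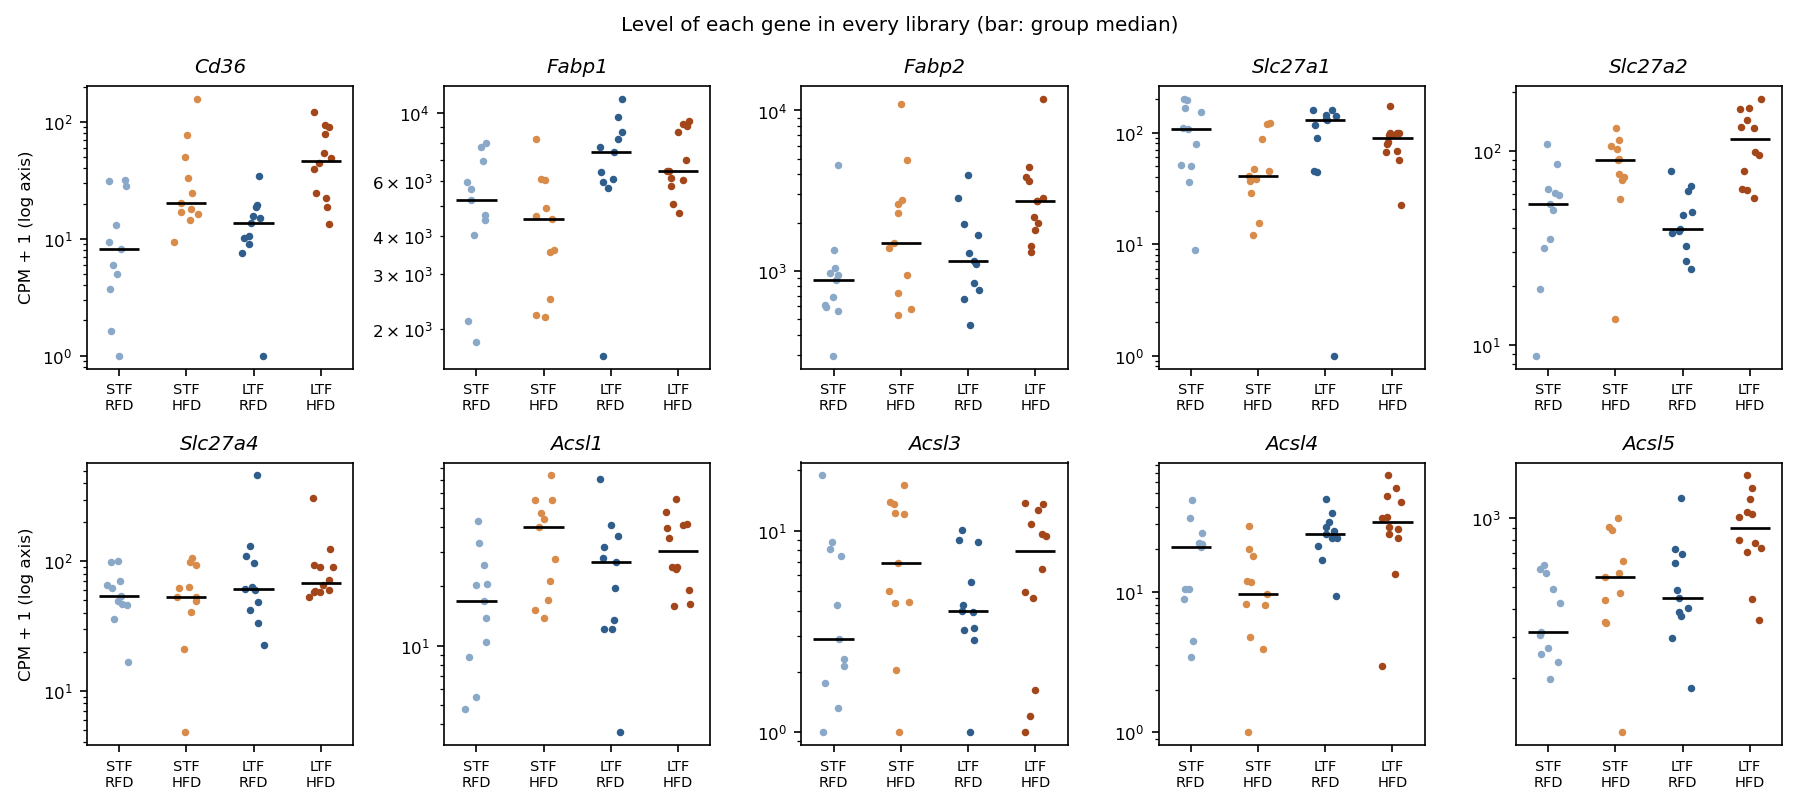
CPM + 1 of each gene in every library on a log axis, by set and diet, with a bar at the group median. Cd36 and Slc27a2 in LTF show the HFD points shifted above the RFD points, with 8 of 12 above every RFD mouse for each gene, and Fabp1 overlaps in all groups.

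Among the fatty acid transport proteins, which also carry very-long-chain acyl-CoA synthetase activity, only Slc27a2 was called. SLC27A2 (FATP2) is an acyl-CoA synthetase for very-long-chain fatty acids as well as a transporter (chromosome 2, 126552407 to 126588243, plus strand). Its lowest, median and highest levels in LTF were 23.7, 38.3 and 77.4 CPM on RFD and 55.8, 113.7 and 184 CPM on HFD. All 12 HFD mice exceeded the RFD median and 8 exceeded every RFD mouse, and the other 4 lay within the RFD range. The difference in LTF was 1.34 on the log2 scale (SE 0.24, adjusted p = 0.00836, quasi-likelihood test of edgeR, Benjamini-Hochberg adjusted), the smallest p of the 10 genes in either set. In STF the levels were 7.78, 52.0 and 107 CPM on RFD and 12.5, 88.2 and 130 CPM on HFD. There 10 of 11 HFD mice exceeded the median of RFD, and the log2 fold change of 0.68 (SE 0.32, edgeR adjusted p = 0.258) did not pass. The lowest HFD mouse in STF was HFD 64, without which Slc27a2 was among the genes called. In LTF the difference was 1.27 with the enterocyte covariate and 1.28 with the tuft covariate (edgeR adjusted p = 0.0122 and 0.00641), and within the number series it was 1.76, 1.22 and 1.05 in mean log2 CPM. Within the STF series it was 0.72, 1.90 and -0.10.

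Slc27a1 and Slc27a4 did not follow Slc27a2. SLC27A1 (FATP1) is best known as a transporter of muscle and fat. Slc27a1 (chromosome 8, 71568882 to 71587302, plus strand) had 7.78, 107 and 200 CPM (lowest, median, highest) on RFD and 11.1, 39.8 and 121 CPM on HFD in STF. It had 0, 129.6 and 157.5 CPM on RFD and 21.4, 88.0 and 174 CPM on HFD in LTF. The HFD values were mostly below the RFD median, in 9 of 11 mice in STF and 11 of 12 in LTF. The log2 fold changes were -0.97 (SE 0.40) and -0.33 (SE 0.39) with adjusted p = 0.188 and 0.824 from the edgeR test, and neither passed. In LTF the mean log2 CPM difference had the other sign, 0.18, since RFD 3 had no read of Slc27a1. With the tuft marker level as a covariate the STF value was -0.32, and with the enterocyte level it was -1.36, which was called (edgeR adjusted p = 0.0735).

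SLC27A4 (FATP4) is the main fatty acid transport protein of the small intestine. Slc27a4 (chromosome 2, 29802634 to 29817522, plus strand) had a lowest, median and highest level of 15.6, 53.0 and 99.1 CPM on RFD and 3.79, 52.1 and 105.5 CPM on HFD in STF, and of 21.6, 60.6 and 460 CPM on RFD and 52.0, 67.3 and 305 CPM on HFD in LTF. The diets overlapped over nearly their whole range. The log2 fold changes were -0.02 (SE 0.34) and -0.14 (SE 0.39), with edgeR adjusted p = 0.987 and 0.945. The highest value, in LTF RFD 3, came from the library with the highest summed enterocyte markers, 28468 CPM.

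The binding proteins split. FABP1, the liver-type protein, carries fatty acids, bile acids and other ligands. Fabp1 (chromosome 6, 71199827 to 71205023, plus strand) was the most abundant of the 10 genes and was not called in either set. In STF it had 1808, 5210 and 7957 CPM (lowest, median, highest) on RFD and 2173, 4541 and 8225 CPM on HFD, and in LTF it had 1634, 7478 and 11078.5 CPM on RFD and 4716, 6460 and 9374 CPM on HFD. Fabp1 differed by a log2 fold change of -0.18 (SE 0.31) in STF and -0.06 (SE 0.22) in LTF, with adjusted p = 0.812 and 0.956 from the edgeR test.

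FABP2, the intestinal-type protein, binds long-chain fatty acids in enterocytes. Fabp2 (chromosome 3, 122895072 to 122899506, plus strand) had 294.5, 879 and 4596 CPM (lowest, median, highest) on RFD and 532, 1497 and 10980 CPM on HFD in STF. In LTF it had 459, 1147 and 3935 CPM on RFD and 1302, 2722 and 11816 CPM on HFD. In STF 8 of 11 HFD mice and in LTF 12 of 12 were above the RFD median, but only 2 in each set were above every RFD mouse. The log2 fold changes were 1.29 (SE 0.51) and 1.19 (SE 0.36), and the adjusted p of 0.177 and 0.175 from the edgeR test did not pass. Over both sets Fabp2 rose by 1.19 (SE 0.32, edgeR adjusted p = 0.0171). With the tuft marker level as a covariate this value was 0.59 with an edgeR adjusted p of 0.225, and the part of that marker level in the difference was not tested further. Without LTF RFD 3, which had the highest summed enterocyte markers of all libraries, Fabp2 was called in LTF (1.42, edgeR adjusted p = 0.0545), and without LTF HFD 6, which held the highest Fabp2 value, the difference was 0.78 (edgeR adjusted p = 0.383). In STF it was 0.68 without HFD 50, the highest Fabp2 value there (edgeR adjusted p = 0.445), and 0.66 without both libraries under 500000 reads (edgeR adjusted p = 0.483). The 2 binding proteins can be set against each other within a library: Fabp2 made up a median of 4.62% of the summed TPM (deposited transcript abundance, scaled for gene length and depth) of Fabp1 and Fabp2 on RFD and 14.5% on HFD in STF, and 5.84% and 12.8% in LTF. This share was above the RFD median in 9 of 11 HFD mice in STF and in 12 of 12 in LTF.

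Of the long-chain acyl-CoA synthetases, Acsl5 had the highest level and was the one called higher over both sets. ACSL5 lies on mitochondria and the endoplasmic reticulum and is the abundant long-chain synthetase of the small intestine. Acsl5 (chromosome 19, 55251938 to 55297720, plus strand) had 197, 316 and 621 CPM (lowest, median, highest) on RFD and 115, 549 and 991 CPM on HFD in STF, and 179, 446 and 1212 CPM on RFD and 355, 902 and 1526 CPM on HFD in LTF. HFD mice were above the RFD median in 10 of 11 and 10 of 12 cases, and above every RFD mouse in 4 and 2. Within the sets the log2 fold changes of 0.58 (SE 0.30) and 0.79 (SE 0.26) did not pass (adjusted p = 0.300 and 0.233, quasi-likelihood test of edgeR). Over both sets Acsl5 rose by 0.67 (SE 0.20, edgeR adjusted p = 0.0325), and by 0.51 with the tuft covariate, where it was not called (edgeR adjusted p = 0.182). It was called in 10 of 13 settings and not with limma on log2(TPM + 1) or log2(TPM + 0.1) (0.59 in each, limma adjusted p = 0.170 and 0.203). Without LTF RFD 3, Acsl5 was called in LTF (0.97, edgeR adjusted p = 0.0546). Acsl5 overlaps Zdhhc6 on the opposite strand, which had 4494 reads against 51746 for Acsl5 over all libraries, and whether counting used strand is not given in the sources used here.

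ACSL1 supplies acyl-CoA for oxidation and for triglycerides in liver, heart and fat. Acsl1 (chromosome 8, 46471037 to 46536051, plus strand) had a lowest, median and highest level of 3.77, 15.8 and 42.1 CPM on RFD and 12.8, 39.0 and 72.5 CPM on HFD in STF, where 9 of 11 HFD mice were above the RFD median and 5 above every RFD mouse. In LTF it had 2.63, 25.6 and 69.0 CPM on RFD and 14.9, 29.3 and 54.9 CPM on HFD, with 6 of 12 HFD mice above the RFD median and none above every RFD mouse. Fold changes on the log2 scale were 1.05 (SE 0.39, adjusted p = 0.156) in STF and 0.25 (SE 0.35, adjusted p = 0.857) in LTF by the edgeR test, so that neither passed. ACSL4 prefers arachidonic acid and other polyunsaturated fatty acids. Acsl4 (chromosome X, 142317993 to 142390535, minus strand) had 2.44, 19.8 and 43.4 CPM on RFD and 0, 8.68 and 28.3 CPM on HFD in STF, and 8.34, 24.8 and 44.7 CPM on RFD and 1.95, 30.2 and 66.0 CPM on HFD in LTF. In STF 10 of 11 HFD mice were below the RFD median, whereas in LTF 8 of 12 were above it. The log2 fold changes were -0.74 (SE 0.50) and 0.34 (SE 0.33), with edgeR adjusted p = 0.440 and 0.780, and the STF value was 0.02 with the tuft marker level as a covariate. ACSL3, a synthetase of the endoplasmic reticulum and lipid droplets, was the lowest of the 4 in TPM in every group but STF HFD, where Acsl4 was lower. Acsl3 (chromosome 1, 78657825 to 78707743, plus strand) had group medians from 1.89 to 6.90 CPM with 1 library at 0 in each group, and at most 51 reads in a library. Its log2 fold changes of 0.83 (SE 0.68) and 0.65 (SE 0.59) had edgeR adjusted p = 0.542 and 0.764. Acsl3 overlaps Utp14b on the same strand, which had 202 reads against 493 for Acsl3, so that its few reads are uncertain.

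Compared per length in deposited TPM, the order of the 10 genes was led by Fabp1, Fabp2 and Acsl5 in all 4 groups. Mean Fabp1 levels were 15403 ± 7596, 13087 ± 7446, 25369 ± 8133 and 25157 ± 6497 TPM (SD; STF RFD, STF HFD, LTF RFD, LTF HFD). Fabp2 followed with means from 1037 ± 637 TPM (STF RFD) to 4219 ± 2320 TPM (LTF HFD), and Acsl5 with 95.6 ± 48.2 TPM (STF RFD) to 282 ± 117 TPM (LTF HFD). Each of these 3 genes was above the next gene of its group in every library, except for Acsl5 over Slc27a1 in LTF RFD, where it was in 10 of 11 (adjusted p from 0.00270 to 0.00502, exact paired permutation test of signs, two-sided, over 36 neighbouring pairs). Rank 4 went to Slc27a1 on RFD (31.6 ± 21.9 TPM in STF and 35.8 ± 18.2 TPM in LTF) and to Slc27a2 on HFD (26.4 ± 11.1 and 52.7 ± 22.1 TPM). On HFD, Slc27a2 was above Slc27a1 in 9 of 11 libraries in STF and in 9 of 12 in LTF (adjusted p = 0.0932 and 0.0434, same exact permutation test), and on RFD in STF the 2 genes did not differ beyond their spread (adjusted p = 0.390, same exact permutation test). On RFD in LTF, Slc27a4 ranked between these 2 genes, so they were not tested against each other. Neighbouring pairs were picked by mean TPM in the same libraries that were then tested. The p-values of this order therefore describe it and are not separate support for it. By mean TPM, Cd36 moved from rank 7 on RFD to rank 6 on HFD in STF and from 8 to 7 in LTF. In LTF it was above Acsl1 in 10 of 12 HFD libraries, and Acsl1 was above it in 8 of 11 RFD libraries (adjusted p = 0.00703 and 0.116, same exact permutation test). In STF these ranks did not part Cd36 from its neighbours. It was above Acsl1 in 4 of 11 RFD libraries and above Slc27a4 in 6 of 11 HFD libraries (adjusted p = 0.659 and 0.847, same exact permutation test). By median, Cd36 stayed below Acsl1 in STF, at 2.84 against 3.37 TPM on RFD and 5.96 against 6.0 TPM on HFD. The last place was held by Acsl4 in STF HFD and by Acsl3 in the other groups.

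**Figure D3:**
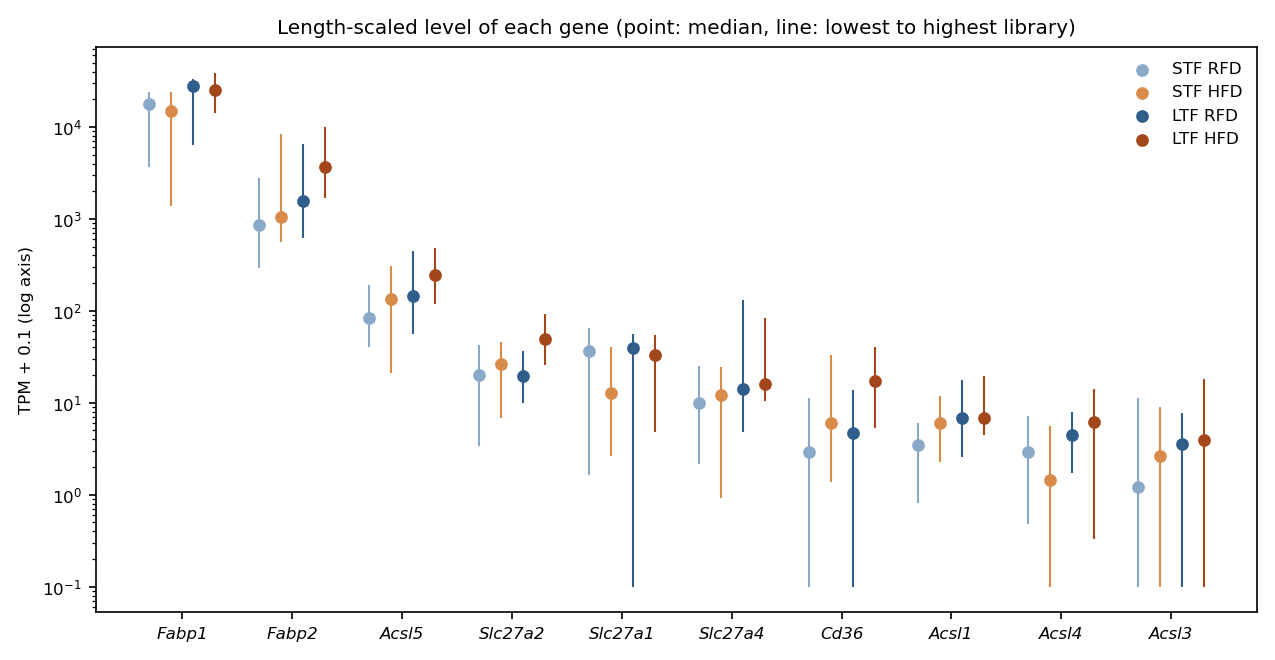
TPM + 0.1 of each gene on a log axis for the 4 groups, with a point at the median and a line from the lowest to the highest library. By median, Fabp1, Fabp2 and Acsl5 stand above the other 7 genes, which lie within overlapping ranges. The range of Acsl5 overlaps theirs in every group but LTF HFD.

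Within families, the share of one gene in the summed TPM of its family gives a ratio that does not depend on library size. Slc27a2 made up a median of 34.5% of the 3 Slc27a genes on RFD and 64.2% on HFD in STF, and 26.4% and 52.1% in LTF. Its share was above the RFD median in 10 of 11 HFD mice in STF and in 12 of 12 in LTF, and above every RFD mouse in 6 and 4. The share of Slc27a1 ran the other way, with medians of 44.9% and 22.2% in STF and 49.1% and 28.0% in LTF. Acsl5 held its place among the 4 Acsl genes, with medians of 92.1% and 91.5% in STF and 90.1% and 92.8% in LTF. These shares are descriptions and were not tested.

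**Figure D4:**
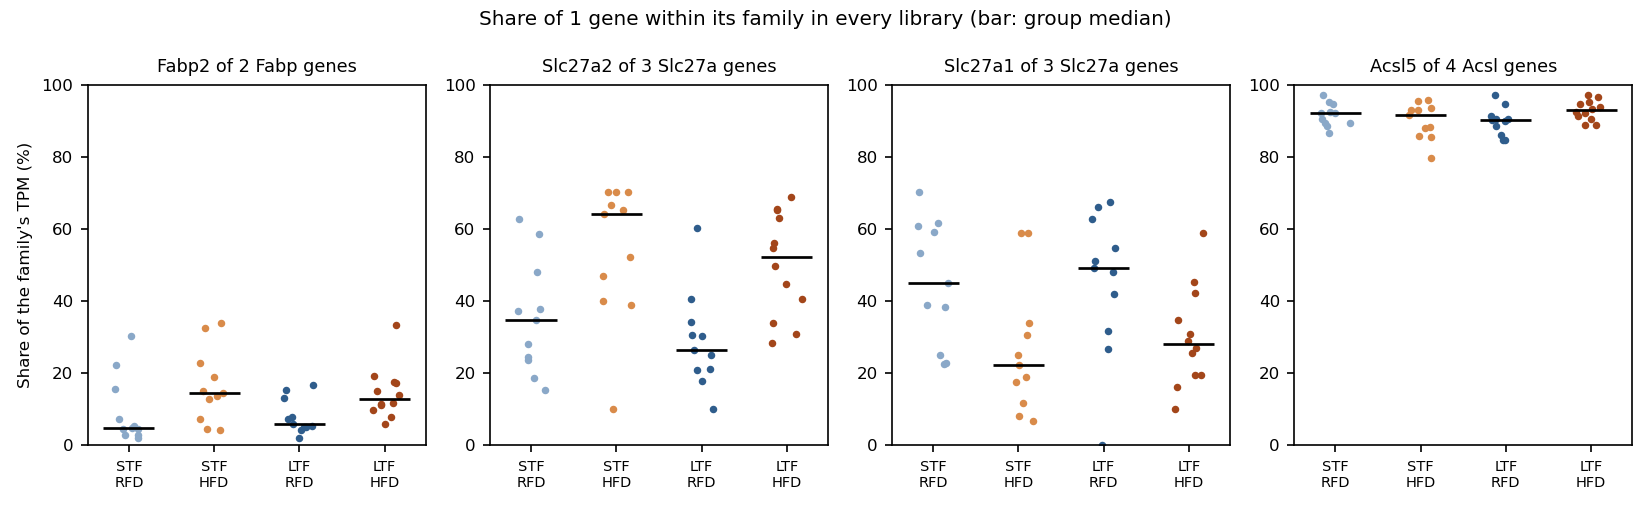
Percent of the summed TPM of a family that belongs to 1 gene, in every library, with a bar at the group median. The median of Slc27a2 among the 3 Slc27a genes goes from 34.5% on RFD to 64.2% on HFD in STF and from 26.4% to 52.1% in LTF, while Acsl5 stays at 90.1% to 92.8% of the 4 Acsl genes.

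Whether the diet difference itself changed between the sets was asked with an interaction term. None of the 10 genes was called, against 0.00713% of all genes, which is 1 gene. None of the 10 had an unadjusted p under 0.05 either, against 3.27% of all genes. The largest differences between the sets (LTF minus STF, log2) were 1.14 for Acsl4 (SE 0.59, unadjusted p = 0.0579), -0.75 for Acsl1 (SE 0.52, unadjusted p = 0.159) and 0.71 for Slc27a2 (SE 0.40, unadjusted p = 0.0794), by the edgeR test. Hence the calls of Cd36 and Slc27a2 in LTF but not in STF were not shown to differ between the sets. Between sets within a diet, Acsl4 was called higher in LTF than in STF on HFD (log2 fold change 1.61, SE 0.42, edgeR adjusted p = 0.0209), against 5.55% of all genes called, and none of the 10 was called on RFD, against 1.55%.

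Marker levels of the libraries moved with several of the 10 genes. As for the covariates, the marker level here was the mean log2 CPM of the 15 markers of a list. With each gene and this level centred within diet, correlations over the 22 STF and 23 LTF libraries were computed for 40 pairs (Pearson's r and Spearman's rho, permutation test with Benjamini-Hochberg adjustment). Library depth and composition are shared by both measures. Acsl5 rose with the enterocyte marker level in both sets, with rho = 0.88 and r = 0.89 in STF (permutation adjusted p = 8e-05 for rho and 0.0001 for r, the smallest that the permutations can give here) and rho = 0.79 and r = 0.89 in LTF (permutation adjusted p = 0.0002 for rho and 0.0001 for r). Without the 2 libraries farthest from the median marker level, r was 0.83 and 0.82. Fabp2 did so as well, with rho = 0.51 and r = 0.55 in STF (permutation adjusted p = 0.0649 and 0.0332) and rho = 0.72 and r = 0.70 in LTF (permutation adjusted p = 0.00149 and 0.00143), and r was 0.56 and 0.60 without the 2 farthest libraries. Cd36 followed the enterocyte level in STF (rho = 0.70, r = 0.70, permutation adjusted p = 0.00335 and 0.00145, r = 0.69 without the 2 farthest) but not past the threshold in LTF (rho = 0.28, permutation adjusted p = 0.287). Slc27a4 followed it in LTF (rho = 0.87, r = 0.72, permutation adjusted p = 8e-05 and 0.00143, r = 0.79 without the 2 farthest). Slc27a2 did so in STF with rho = 0.51 and r = 0.71 (permutation adjusted p = 0.0671 and 0.00258), where r fell to 0.38 without the 2 farthest libraries, so that in CPM this relation rests on them. In log2(TPM + 1) it did not, with rho = 0.83 and r = 0.80, and r = 0.73 without the 2 farthest (permutation adjusted p = 8e-05 for rho).

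Slc27a1 and Acsl4 followed the tuft marker level. They were 2 of the 4 genes with a negative log2 fold change in STF, none of which passed the test, and the other two were Fabp1 and Slc27a4. For Slc27a1 rho was 0.86 and r 0.74 in STF (permutation adjusted p = 8e-05 and 0.00056) and rho was 0.76 and r 0.74 in LTF (permutation adjusted p = 8e-05 and 0.0001), with r = 0.85 and 0.75 without the 2 farthest libraries. For Acsl4 they were 0.50 and 0.58 in STF (permutation adjusted p = 0.0671 and 0.0259, r = 0.35 without the 2 farthest, so that in CPM it rests on them, against r = 0.64 and 0.54 without them in log2(TPM + 1)) and 0.84 and 0.90 in LTF (permutation adjusted p = 8e-05 and 0.0001, r = 0.85). Fabp1 also rose with it in LTF by rank (rho = 0.51, permutation adjusted p = 0.0649) but not by r (0.34, permutation adjusted p = 0.243, r = 0.86 without the 2 farthest). In STF Fabp1 did so by r (0.53, permutation adjusted p = 0.0304, r = 0.34 without the 2 farthest) but not by rank (rho = 0.36, permutation adjusted p = 0.219). In log2(TPM + 1) Fabp1 passed by both measures in both sets. There rho was 0.51 and r 0.81 in STF (permutation adjusted p = 0.0443 and 0.00045), and rho was 0.55 and r 0.49 in LTF (permutation adjusted p = 0.0203 and 0.0317). Fabp2 ran against the tuft marker level in STF, with rho = -0.69 and r = -0.63 in CPM (permutation adjusted p = 0.00493 and 0.0124, r = -0.73 without the 2 farthest). In log2(TPM + 1) this STF relation did not pass (rho = -0.20 and r = -0.14, permutation adjusted p = 0.537 and 0.687). In LTF, Fabp2 in CPM passed by r (-0.58, permutation adjusted p = 0.0274, r = -0.07 without the 2 farthest) but not by rank (rho = -0.31, permutation adjusted p = 0.244). Within the 3 number series, which hold 6 to 8 libraries each, rho of Acsl5 with the enterocyte level was 0.79, 0.89 and 0.96 in STF and 0.90, 1.00 and 0.52 in LTF. For Slc27a1 with the tuft level the rank correlation was 0.89, 0.54 and 0.57 in STF and 0.95, 0.54 and -0.07 in LTF, so that it did not hold in the last series of LTF.

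**Figure D5:**
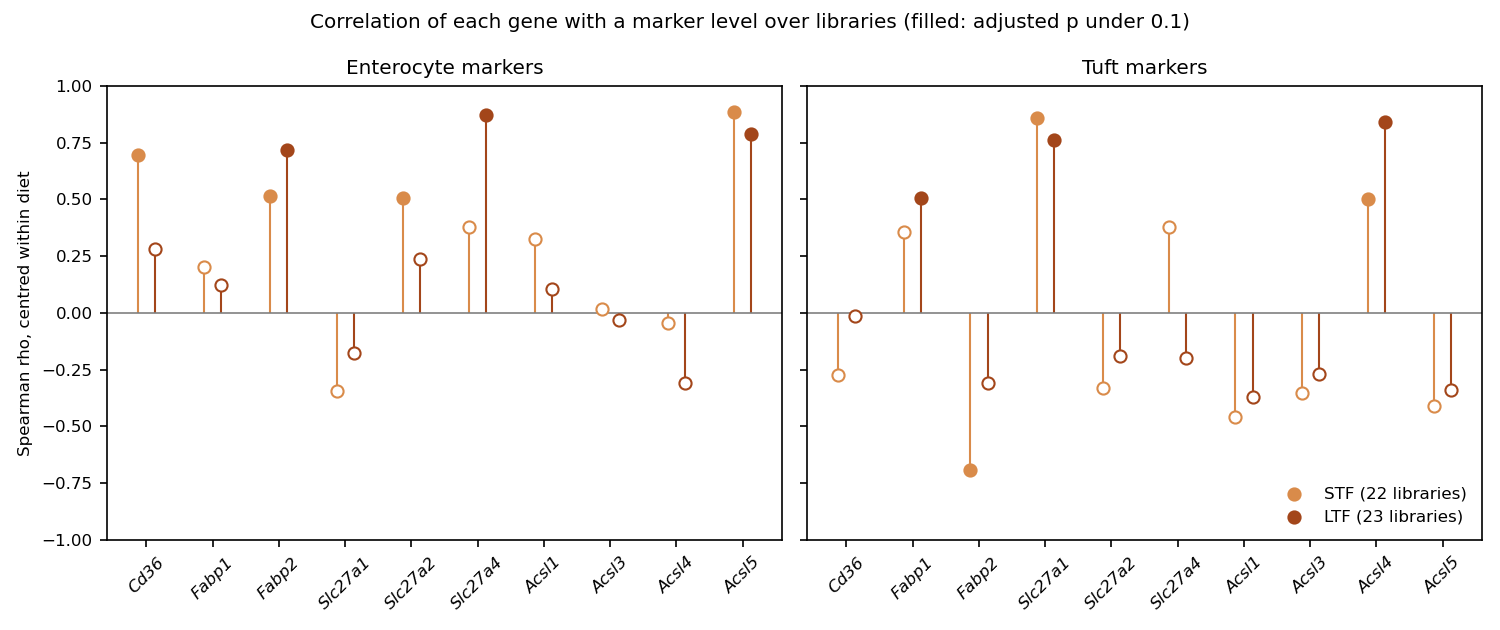
Spearman's rho of each gene with the enterocyte and the tuft marker level over the libraries of a set, after centring within diet; filled points had an adjusted p under 0.1. Acsl5 and Fabp2 are filled on the enterocyte side in both sets (rho from 0.51 to 0.88), and Slc27a1 and Acsl4 on the tuft side in both sets (rho from 0.50 to 0.86).

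Markers of other cells were counted in the same diet comparisons. The 6 Paneth markers were higher on HFD by point estimate in both sets with none called, and their summed medians were 2732 and 28198 CPM in STF and 1444 and 10982 CPM in LTF (permutation adjusted p = 0.282 and 0.655). In STF HFD 80 they reached 593492 CPM. Within the LTF number series the log2 sum of Paneth markers differed by 3.54, 0.79 and -1.41, so that it was lower on HFD in the last. The summed level of 7 goblet markers differed by 1.12 and 1.03 on the log2 scale (permutation adjusted p = 0.197 and 0.330), and that of 7 enteroendocrine markers by -0.70 and -1.27, of which the LTF value passed (permutation adjusted p = 0.446 and 0.0119). Summed T cell markers had medians of 17.8 and 1.13 CPM in STF and 13.2 and 3.46 CPM in LTF (permutation adjusted p = 0.206 and 0.197), and summed myeloid and B cell markers had medians of 15.6 and 11.6 CPM and of 5.87 and 6.54 CPM (permutation adjusted p = 0.857 and 0.655). The part of these cells in the differences of the 10 genes was not tested.

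Other genes of the route were mostly not called. Of 8 other genes of membrane uptake, 1 was called in a set, against 3.07% of all genes in STF and 0.728% in LTF. It was Mfsd2a, which encodes a carrier of lysophospholipids with long-chain fatty acids. Mfsd2a had 0, 15.6 and 38.7 CPM (lowest, median, highest) on RFD and 29.2, 48.4 and 68.0 CPM on HFD in LTF, and 12 of 12 HFD mice were above the RFD median. In STF its log2 fold change was 0.24 (SE 0.40, edgeR adjusted p = 0.811), with 10 of 11 HFD mice above the RFD median and none above every RFD mouse. The LTF difference was 1.46 on the log2 scale (SE 0.35, adjusted p = 0.0497, quasi-likelihood test of edgeR, Benjamini-Hochberg adjusted). Of 14 other acyl-CoA synthetases 8 could be tested, and Acss1, which makes acetyl-CoA from acetate in mitochondria, was called in STF. Acss1 had 1.90, 31.8 and 62.2 CPM on RFD and 23.7, 75.8 and 142 CPM on HFD, with 9 of 11 HFD mice above every RFD mouse and a log2 fold change of 1.52 (SE 0.36, edgeR adjusted p = 0.0513). In LTF the value for Acss1 was 0.56 (SE 0.56, edgeR adjusted p = 0.789), with 6 of 12 HFD mice above the RFD median and none above every RFD mouse. Over both sets, where 12% of all genes were called, Mfsd2a (0.87), Zdhhc5 (0.52), which encodes an enzyme that palmitoylates CD36, and Acss1 (0.99) were called higher (edgeR adjusted p = 0.0515, 0.0672 and 0.0755). Of the other binding proteins 3 of 7 could be tested, of the acyl-CoA binding proteins 5 of 6, and of the genes of triglyceride resynthesis 12, with none called in either set or over both. The other transport proteins Slc27a3, Slc27a5 and Slc27a6 had too few reads to be tested. Of 9 nuclear receptor genes of fatty acid metabolism none was called within a set, and over both sets Hnf4g was called higher (0.90, edgeR adjusted p = 0.0184) and Ppard and Nr1h2 lower (-1.17 and -0.52, edgeR adjusted p = 0.0376 and 0.0752). The median log2 fold change was 0.43 and 0.38 for the membrane genes, -0.21 and 0.04 for triglyceride resynthesis and 0.14 and 0.19 for the nuclear receptors in STF and LTF.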

How the data were processed

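Tuft cells were sorted from single mice and sequenced in bulk by Smart-seq2. The authors trimmed the reads, aligned them and counted them per gene, and the submitters' processing notes name cutadapt 1.15, STAR 2.6.0 and RSEM. The deposited expected counts, TPM and FPKM were taken as given. Of the expected counts above 0, 8.79% were not whole, and they were rounded. RSEM divides reads among genes that share them, and strand use is not given in the sources used here. Gene symbols and positions came from GENCODE M21 (GRCm38), and promoter sequences from RefSeq (GRCm38.p6), which held all 10 genes. The genome build is not given in the sources used here. The tables also held 24 columns that match no sample, and these were not used.

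Genes were tested if over 5 reads were counted in 6 or more of the 45 libraries. Counts were normalized with TMM and compared by the quasi-likelihood test of edgeR (R 4.3.3, edgeR 4.0.16) with Benjamini-Hochberg adjustment over the 14020 genes and a threshold of 0.1, separately in each set, as a diet by set interaction, and over both sets with set as a term. CPM were computed from the normalized counts. Levels were compared between genes only in the deposited TPM. Permutation tests drew 100000 resamples (SciPy 1.17.1), and correlations used log2 CPM. Marker levels in covariates and correlations were means of log2 CPM over the markers of a list.

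All 10 genes are named in every comparison, and from the other lists those called in a set. Genes of these lists called over both sets were added after their values were seen. The genes and lists were chosen with earlier results of these data known. Each library is 1 mouse, and p-values describe the spread between the mice of this experiment. By the methods, cagemates (4 in a cage) belonged to the same group, and 1 cage of each group was killed on each of 3 days. Diet therefore differed between cages and not within them. Cage was not a term in the tests, which took mice as independent. Diets share no mouse number within a set. Across sets, 16 pairs of libraries share diet and number, and only 2 of their correlations were over 0.1, so the numbers were not taken as pairs. Alternatives were DESeq2 1.42.0, DESeq2's size factors, no filter or a stricter filter (over 10 reads in 11 or more libraries), limma 3.58.1 on log2(TPM + 1) and log2(TPM + 0.1), a rank test after SAM-seq, the number series as a batch term, marker levels as covariates, leaving out libraries under 500000 reads, and leaving out each library in turn. A newer dispersion method in edgeR, leaving out the libraries that stood apart, and the alternatives for both sets together were chosen after seeing the data. In simulated data of the same design, edgeR recovered 20% of genes changed 2-fold and 68% of genes changed 4-fold in STF, 35% and 87% in LTF, and 68% and 96% over both sets, with 14020 genes in each. Of the genes that edgeR called there, 12.9%, 14.7% and 11.8% had not been changed, against the threshold of 0.1. DESeq2 gave 28.7% in STF and 18.8% in LTF. Only genes with a mean of 10 or more reads were changed, so that recovery of lower genes was not measured. The authors' weighing of counts by cell type proportions was not repeated.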

Additional observations from a re-analysis of the deposited data

How the results depend on the processing

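The calls of Cd36 and Slc27a2 in LTF were kept when any 1 of the 23 libraries was left out (highest edgeR adjusted p 0.0504 and 0.0225), and Slc27a2 was called under all 14 settings and Cd36 under 13. The 14 settings include the main fit. They also include the fit without libraries under 500000 reads, which left out no LTF library and so repeated the main fit. With limma on log2(TPM + 0.1) only 1 gene, Slc27a2, was called, and Cd36 had an adjusted p of 0.179. In STF, genes called higher and lower were 2 and 1 with DESeq2, 5 and 1 with the enterocyte covariate, 3 and 0 with the rank test after SAM-seq and 2 and 0 with edgeR's newer dispersion method. In the same order, these fits called 1534, 1200, 2553 and 1604 of all 14020 genes. Leaving out each library in turn gave 0 to 5 higher and 0 to 1 lower in STF and 2 to 4 higher and 0 lower in LTF. Over both sets, 2 were higher with the tuft covariate, and 1 was lower (Slc27a1, -0.71) without the libraries that stood apart. Of all 14020 genes, 501 and 1986 were called in these fits. On HFD, 2 of the 10 (Acsl4 and Fabp1) were called higher in LTF than in STF without libraries under 500000 reads. That fit called 653 of all 14020 genes, 354 of them higher. The cause of these shifts was not tested.

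Counts over all genes moved more. In STF, 431 genes became 1534 with DESeq2, 210 with no filter, 684 with the stricter filter, 9 and 5 with limma on log2(TPM + 1) and log2(TPM + 0.1), 254 without low libraries, 1200 and 16 with the enterocyte and tuft covariates, 2553 with the rank test, 1604 with the newer dispersion method and 235 without the libraries that stood apart. They ranged from 48 (without HFD 6) to 2004 (without HFD 64) when 1 library was left out. In LTF, 102 became 351 with DESeq2, 51 and 31 with limma, 163 with the number series, 183 with the tuft covariate, 417 with the rank test, 229 with the newer dispersion method and 172 without the libraries that stood apart, and ranged from 63 (without RFD 10) to 649 (without RFD 1). Over both sets, 1676 became 2804 with DESeq2, 941 and 573 with limma, 501 with the tuft covariate and 2899 with the newer dispersion method. The interaction gave 1 gene, 68 with no filter, 5 with the newer dispersion method, and 0 with DESeq2 (459 genes had an unadjusted p under 0.05 in edgeR), both limma fits, the number series, the tuft covariate and without low libraries. None of the 10 genes was called for the interaction under any of these. With a replicate block by mouse number the interaction called 0 genes, and 1 of the 16 pairs correlated best with its own number. No paired analysis was possible for the diet comparisons because the diets share no mouse number within a set.

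Over the settings, diet differences turned sign only in genes that the main fit did not call for diet. Slc27a4 in STF was 0.17 with the number series, 0.074 and 0.19 with the enterocyte and tuft covariates and 0.080 without the libraries that stood apart (-0.15 to 0.11 leaving out 1 library). Slc27a4 in LTF was 0.17 and 0.19 with limma, 0.13 with the rank test and 0.14 without those libraries (-0.44 to 0.44 leaving out 1 library), and over both sets 0.12 with the enterocyte covariate and 0.18 without those libraries. Fabp1 was 0.14 in STF and 0.051 over both sets with the tuft covariate, and in LTF 0.021 with no filter, 0.055 and 0.055 with limma and 0.0033 with the tuft covariate (-0.11 to 0.035 leaving out 1 library). Slc27a1 in LTF was 0.084 and 0.36 with limma and 0.087 with the tuft covariate. Acsl4 was 0.019 in STF and 0.38 over both sets with the tuft covariate, and 0.014 over both sets without the libraries that stood apart. Within the last STF number series, mean log2 CPM differed by -0.10 for Slc27a2 and -0.20 for Acsl5, both called higher over both sets. Summed goblet markers differed by 1.34 in STF as TPM, past the threshold, and in LTF by -1.51 and 2.90 within the last 2 number series, and in the last of them T cell markers differed by 0.32. With log2(TPM + 1), positive correlations past the threshold went from 4 to 6 for enterocyte markers in STF, from 3 to 5 in LTF and from 2 to 4 for tuft markers in STF. The 1 negative one, Fabp2 with tuft markers in STF, became 0. DESeq2 gave no adjusted p for Acsl3 in either set. Genes with few reads, such as Acsl3, and changes near 2-fold were poorly resolved at this depth and spread.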
